A study of Rattus norvegicus with 18 samples.

Results

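Kidney RNA was examined for 10 genes of the response to stress in the endoplasmic reticulum (ER) and of the integrated stress response. They were taken by identifier from a table of 55335 genes: Hspa5 (ENSMUSG00000026864), Hsp90b1 (ENSMUSG00000020048), Calr (ENSMUSG00000003814), Pdia4 (ENSMUSG00000025823), Dnajb9 (ENSMUSG00000014905), Xbp1 (ENSMUSG00000020484), Atf4 (ENSMUSG00000042406), Ddit3 (ENSMUSG00000025408), Asns (ENSMUSG00000029752) and Trib3 (ENSMUSG00000032715). All 10 were present in the table, and all 10 passed the filter on low counts that kept 19233 genes. The study sequenced polyadenylated kidney RNA from 18 animals in 3 groups of 6. Treated animals (Treat) were model animals given TSK, known here only by that abbreviation, by mouth at 500 mg/kg each day for 4 weeks. Diabetic nephropathy animals (DN) received a high-fat diet and a streptozotocin (STZ) injection and no TSK is recorded for them. Control animals (Ctrl) ate ordinary feed and had solvent by gavage. The labels name the species as Rattus norvegicus, while the identifiers and the genome builds named in the submitters' notes are those of the mouse. The sources used here give no strain, sex or age. Total counts ranged from 22040987 to 28135824 in Treat, from 25505257 to 35275498 in DN and from 26312358 to 34140706 in Ctrl.

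The ER folds secreted and membrane proteins, and when unfolded proteins accumulate, sensors in its membrane raise the folding capacity. ATF6, and IRE1 through splicing of Xbp1 mRNA, drive genes for ER chaperones and for the disposal of misfolded proteins. PERK phosphorylates the translation factor eIF2, which slows protein synthesis while favouring translation of ATF4. Other eIF2 kinases reach ATF4 from amino acid shortage, haem deficiency or double-stranded RNA, and the shared output is called the integrated stress response. Because ATF4 is controlled largely at translation and XBP1 by splicing, gene counts measure neither the ATF4 protein nor spliced Xbp1 mRNA. In diabetic kidney disease the response has been studied mostly in tubular cells and podocytes.

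The members called against Ctrl included both falls and rises. Relative to Ctrl, the chaperone genes Hspa5, Hsp90b1 and Calr were lower in DN and in Treat, with fold changes of 0.612 to 0.796. Ddit3 and Trib3, which act downstream of ATF4, rose in both, and Xbp1 rose in Treat. No member was called between Treat and DN. A gene was called when its adjusted p was under 0.05 (edgeR quasi-likelihood test on all 18 libraries, Benjamini-Hochberg adjustment over 19233 genes). DN versus Ctrl called 5 of the 10 members, 2 higher and 3 lower, where 32.2% of all genes were called (16.9% higher, 15.3% lower). Treat versus Ctrl called 7 members, 3 higher and 4 lower, where 44.9% of all genes were called (23% higher, 21.9% lower). Treat versus DN called 0 members where 1.39% of all genes were called (0.536% higher, 0.858% lower). With 10 genes against backgrounds this high, nothing particular to the set is read from the counts. Groups did not overlap for 1 member in DN versus Ctrl, lower (all genes 16.2%, of which 8.34% higher and 7.89% lower), for 4 in Treat versus Ctrl, 2 in each direction (all genes 24.7%, 11.5% higher and 13.2% lower), and for 0 in Treat versus DN (all genes 1.8%, 0.77% higher and 1.03% lower). No call against Ctrl held in a fit, added after the data had been seen, with a covariate that sets Ctrl 4 against the other 5 controls and so leaves Ctrl 4 as the sole reference. That fit called 986 of all 19233 genes for DN and 1862 for Treat, against 6202 and 8629 without the covariate, so 0 of 10 members is no loss particular to them. The median log2 fold change of the members was -0.10 in DN versus Ctrl, against 0.0079 over all genes, and -0.03 in Treat versus Ctrl, against 0.02 over all genes. In bulk tissue, fewer cells of a type and less RNA per cell cannot be told apart. Markers of tubular, glomerular and immune cells were not analysed here, because names are paired with identifiers for these 10 genes only, so the tissue label was not checked against markers.

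Among the members called lower, 3 share a promoter element with Xbp1, called higher in Treat, and these promoters are shown for that reason; Dnajb9, called lower in Treat, has no match to it. The ER stress response element (ERSE) is CCAAT, bound by NF-Y, and CCACG, bound by ATF6 or XBP1, with 9 bases of any kind between them. It was searched on both strands from 250 bases before to 50 bases after the annotated start in the rat genome (RefSeq, GRCr8), where all 10 members had an entry. Since the labels name rats and the counted genes are those of the mouse, these sequences and positions may be from another species than the one sequenced. A full match lay in the windows of Hspa5, Hsp90b1, Calr and Xbp1, against 0.0657% of 33469 promoter windows (22 windows). These genes are textbook targets of the response, so the match is a description and no result of the counts. The Trib3 window holds TGATGNAA, the core shared by many composite elements that ATF4 binds with C/EBP proteins, as do 3.98% of all windows. It was the only 1 of the 10 member windows with this match, and those of Ddit3 and Asns had none. Capitals mark the full ERSE matches in the first 4 sequences and the TGATGNAA match, on the reverse strand, in Trib3.
Hspa5: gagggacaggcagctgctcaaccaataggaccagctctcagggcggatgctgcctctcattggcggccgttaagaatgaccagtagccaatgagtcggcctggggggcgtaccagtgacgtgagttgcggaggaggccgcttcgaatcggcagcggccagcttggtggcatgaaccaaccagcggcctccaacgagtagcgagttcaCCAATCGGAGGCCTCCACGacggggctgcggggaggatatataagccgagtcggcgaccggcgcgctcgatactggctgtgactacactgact
Hsp90b1: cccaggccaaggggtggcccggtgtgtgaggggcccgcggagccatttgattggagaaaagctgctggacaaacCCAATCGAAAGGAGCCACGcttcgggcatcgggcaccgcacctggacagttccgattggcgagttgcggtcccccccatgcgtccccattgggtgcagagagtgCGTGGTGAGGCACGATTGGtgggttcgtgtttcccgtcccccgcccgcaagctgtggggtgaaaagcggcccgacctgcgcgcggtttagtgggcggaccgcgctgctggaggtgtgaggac
Calr: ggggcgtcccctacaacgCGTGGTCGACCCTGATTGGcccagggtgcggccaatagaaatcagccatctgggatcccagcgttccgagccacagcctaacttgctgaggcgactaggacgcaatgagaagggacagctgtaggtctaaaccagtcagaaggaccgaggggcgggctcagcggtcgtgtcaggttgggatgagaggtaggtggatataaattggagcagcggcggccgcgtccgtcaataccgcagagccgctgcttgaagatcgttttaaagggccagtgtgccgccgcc
Xbp1: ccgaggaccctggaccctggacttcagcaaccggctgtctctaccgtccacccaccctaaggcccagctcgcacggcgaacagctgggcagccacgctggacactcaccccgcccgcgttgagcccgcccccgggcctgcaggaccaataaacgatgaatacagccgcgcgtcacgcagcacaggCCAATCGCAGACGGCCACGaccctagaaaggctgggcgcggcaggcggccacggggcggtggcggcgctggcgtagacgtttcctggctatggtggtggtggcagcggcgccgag
Trib3: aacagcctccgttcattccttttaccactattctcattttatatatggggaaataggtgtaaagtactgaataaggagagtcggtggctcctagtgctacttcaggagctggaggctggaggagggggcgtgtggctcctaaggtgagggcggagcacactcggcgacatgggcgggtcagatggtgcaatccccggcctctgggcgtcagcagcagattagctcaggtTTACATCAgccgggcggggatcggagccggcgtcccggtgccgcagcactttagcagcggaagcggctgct

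The Hspa5 window spans chr3:38452766-38453065 on the plus strand, and its ERSE runs from base -43 to base -25, counted from the annotated start as base 1. The Hsp90b1 window (chr7:23012244-23012543, minus strand) holds 2 full matches, at -176 to -158 and, in reverse, at -72 to -54. The Calr window (chr19:40213117-40213416, plus strand) holds 1 reverse match at -232 to -214. The Xbp1 window (chr14:84604373-84604672, plus strand) holds 1 match at -65 to -47. The Trib3 window (chr3:161275484-161275783, minus strand) has its match at -21 to -14. None of the 10 windows held ERSE-II (ATTGG and CCACG with 1 base between them, in 0.0508% of all windows) or the UPR element TGACGTGG (in 0.595%). A match describes these letters only. ERSE is common to Hspa5, Hsp90b1 and Calr, which were called lower in DN and in Treat than in Ctrl, and to Xbp1, which was called higher in Treat.

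Hspa5 encodes BiP, the Hsp70 of the ER lumen that holds the stress sensors inactive and is released from them by unfolded protein. Its level was 268 (lowest), 304 (median) and 397 (highest) CPM in Treat (counts scaled to the library total multiplied by its TMM factor), 251.4, 355 and 427 CPM in DN and 398, 498 and 537 CPM in Ctrl. All Treat libraries lay below all Ctrl libraries, and among the DN libraries DN 4 and DN 6 reached above the lowest control, Ctrl 2. Hspa5 averaged 358 ± 61.3 CPM in DN and 488 ± 50.2 CPM in Ctrl (SD, n = 6 each), a fall of 0.44 on the log2 scale with an SE of 0.13 (edgeR, adjusted p = 0.012), and 6 of 6 DN libraries lay below the Ctrl median. In Treat it averaged 323 ± 55.6 CPM and was lower than in Ctrl by a log2 fold change of -0.60 (SE 0.13, adjusted p = 0.00103).

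Hsp90b1, the ER member of the Hsp90 family (GRP94), which folds integrins, Toll-like receptors and insulin-like growth factors, had the largest fall of the 10. It stood at 343, 409 and 513 CPM in Treat, at 374, 464 and 485 CPM in DN and at 553, 705 and 810 CPM in Ctrl (lowest, median and highest). Neither Treat nor DN overlapped with Ctrl for this gene, as for 13.2% and 7.89% of all genes in the same direction. It averaged 444 ± 42.5 CPM in DN and 693 ± 93.2 CPM in Ctrl (log2 fold change -0.64, SE 0.12, adjusted p = 0.000414). In Treat it averaged 424 ± 72.5 CPM (log2 fold change against Ctrl -0.71, SE 0.12, adjusted p = 0.000104).

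Calr encodes calreticulin, the lectin chaperone that binds calcium and newly made glycoproteins. Its level was 239, 286 and 333 CPM in Treat, 252, 296 and 325 CPM in DN and 320, 371 and 401 CPM in Ctrl (lowest, median and highest). The overlap with the controls was slight: DN 5 and Treat 6 reached above the lowest control, and every DN and Treat library lay below the Ctrl median. The log2 fold change was -0.33 in DN versus Ctrl (SE 0.09, adjusted p = 0.00849) and -0.35 in Treat versus Ctrl (SE 0.09, adjusted p = 0.00397).

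Pdia4, a protein disulfide isomerase (ERp72) that forms and rearranges disulfide bonds, did not pass the test in any comparison. It averaged 85.3 ± 13.0 CPM in Treat, 77.6 ± 5.40 CPM in DN and 87.6 ± 5.28 CPM in Ctrl (SD, n = 6 each). Its log2 fold change was -0.17 in DN versus Ctrl (95% interval -0.36 to 0.0071, adjusted p = 0.131) and -0.04 in Treat versus Ctrl (-0.22 to 0.14, adjusted p = 0.74). With the libraries Ctrl 4 and Treat 1 both left out, Pdia4 was called lower in DN (log2 fold change -0.21, adjusted p = 0.0379). Of the 4 chaperone genes, 3 were called lower in each comparison with Ctrl, where 15.3% of all genes were called lower in DN and 21.9% in Treat; nothing particular to the group is read from this.

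**Figure D1:**
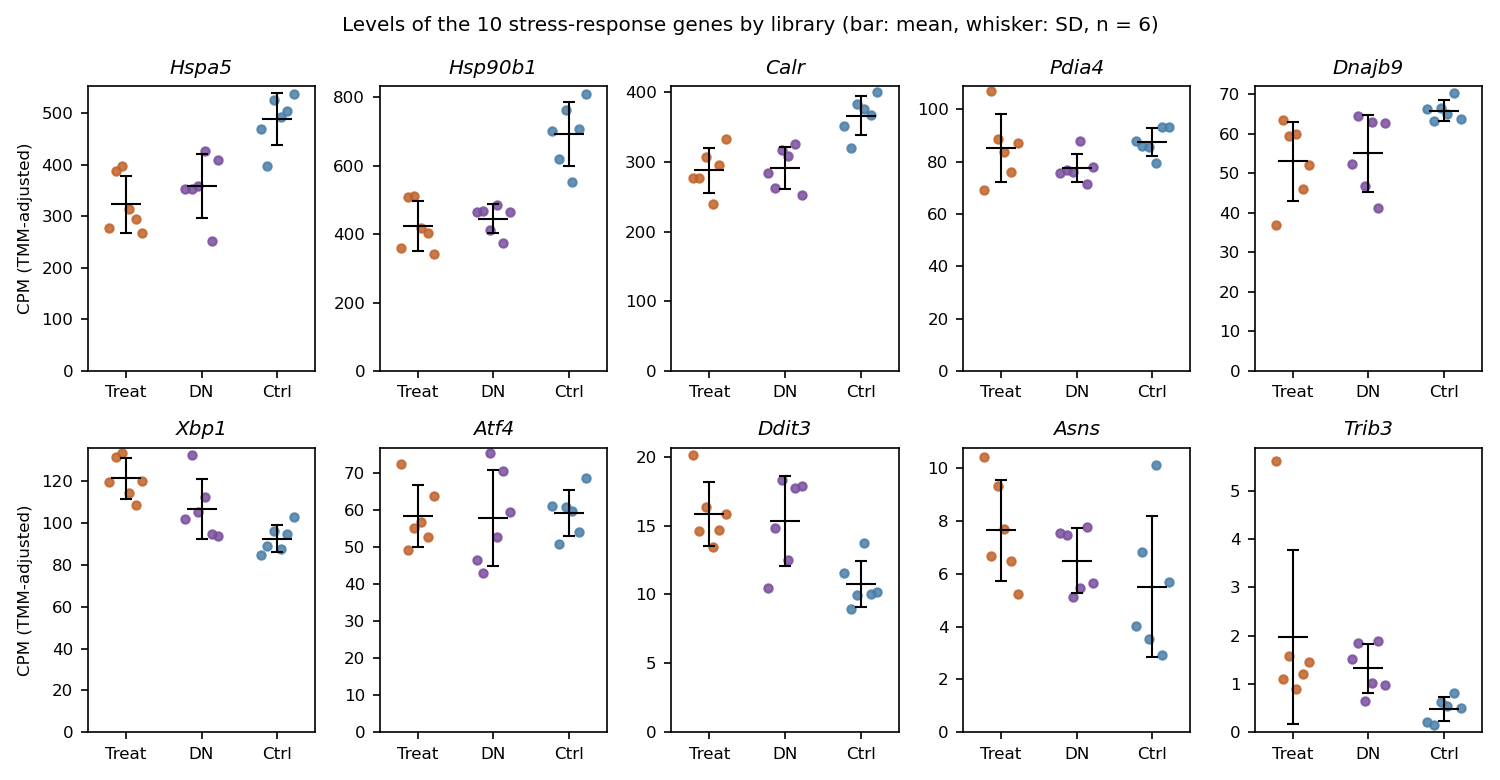
CPM (counts scaled to the library total multiplied by its TMM factor, y axis from 0) of each gene in the 6 libraries of Treat, DN and Ctrl (points), with the group mean (bar) and SD (whisker). Hspa5, Hsp90b1 and Calr sit lower in Treat and DN than in Ctrl, Ddit3 and Trib3 sit higher, and Trib3 in Treat 1 stands at 5.62 CPM.

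Xbp1 encodes the transcription factor that IRE1 activates by splicing its mRNA. Relative to Ctrl, its group means moved opposite to those of the chaperones. Xbp1 stood at 109, 120 and 133 CPM in Treat, at 93.6, 103 and 132 CPM in DN and at 84.7, 91.7 and 103 CPM in Ctrl (lowest, median and highest). Every Treat library was above every Ctrl library, a separation upward found for 11.5% of all genes, while DN overlapped with both other groups. Xbp1 averaged 121 ± 9.62 CPM in Treat and 92.4 ± 6.57 CPM in Ctrl (log2 fold change 0.39, SE 0.08, adjusted p = 0.00122). In DN it averaged 107 ± 14.3 CPM, with 6 of 6 libraries above the Ctrl median but an adjusted p of 0.0686 (edgeR, log2 fold change 0.21, 95% interval 0.03 to 0.38). The DN difference passed in 3 of 29 alternatives. These were limma voom (adjusted p = 0.0269) and edgeR without DN 5 or without DN 6 (adjusted p = 0.0447 and 0.0376). The DN difference did not pass in the other 26. Without DN 2 the log2 fold change was 0.13 (edgeR adjusted p = 0.183).

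Dnajb9, which encodes ERdj4, a BiP cofactor that is a target of XBP1 and represses IRE1, went the other way from Xbp1 in group means. Dnajb9 stood at 37.0, 55.7 and 63.5 CPM in Treat, at 41.2, 57.5 and 64.5 CPM in DN and at 63.2, 65.6 and 70.4 CPM in Ctrl (lowest, median and highest). Its coefficient of variation was 18.9% in Treat and 17.7% in DN, against 3.94% in Ctrl, and the lowest libraries were Treat 1 and DN 5. Dnajb9 was lower in Treat than in Ctrl (log2 fold change -0.31, SE 0.12, adjusted p = 0.0483), with 6 of 6 Treat libraries below the Ctrl median. That call stood at the threshold and was lost in 15 of 29 alternatives, where adjusted p reached 0.165. Leaving out Treat 1, 5 or 6, DN 1 or 4, or any control ended it; without Treat 1 the log2 fold change was -0.23 (edgeR adjusted p = 0.0986). In DN the log2 fold change of Dnajb9 was -0.26 (95% interval -0.52 to 0.0039, adjusted p = 0.122).

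Atf4, the transcription factor at the centre of the integrated stress response, showed no called difference in mRNA. It averaged 58.3 ± 8.41 CPM in Treat, 57.9 ± 13.0 CPM in DN and 59.2 ± 6.16 CPM in Ctrl (SD, n = 6 each), with the 3 ranges overlapping throughout. Its log2 fold change was -0.032 in DN versus Ctrl (95% interval -0.30 to 0.24, adjusted p = 0.873) and -0.022 in Treat versus Ctrl (-0.29 to 0.25, adjusted p = 0.903). These intervals allow a change of up to 1.19-fold upward in Treat and 1.18-fold in DN.

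Ddit3, which encodes CHOP, a factor induced by ATF4 and tied to cell death under lasting stress, rose without a called change in Atf4. Ddit3 stood at 13.5, 15.3 and 20.1 CPM in Treat, at 10.5, 16.3 and 18.3 CPM in DN and at 8.94, 10.1 and 13.7 CPM in Ctrl (lowest, median and highest). Ctrl 4 was the highest control and the only one above the lowest Treat library, and DN 1 and DN 4 lay within the Ctrl range. Ddit3 was 1.42-fold higher in DN than in Ctrl (95% interval 1.16 to 1.75, adjusted p = 0.0105) and 1.48-fold higher in Treat than in Ctrl (1.20 to 1.81, adjusted p = 0.00385), with 6 of 6 libraries above the Ctrl median in each. Both calls held in each of 29 other settings, with log2 fold changes of 0.43 to 0.60 in DN and 0.48 to 0.67 in Treat. With the control division as a covariate neither was called (edgeR, log2 fold change 0.16 with adjusted p = 0.763 in DN and 0.21 with adjusted p = 0.631 in Treat).

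Asns, asparagine synthetase, an amino acid enzyme and standard target of ATF4, was variable and was not called. Asns stood at 5.25, 7.16 and 10.4 CPM in Treat, at 5.10, 6.55 and 7.75 CPM in DN and at 2.92, 4.84 and 10.1 CPM in Ctrl (lowest, median and highest). All 6 libraries of DN and of Treat lay above the Ctrl median, but Ctrl 4, at 10.1 CPM, exceeded all DN libraries and 5 of 6 Treat libraries. The log2 fold change in Treat versus Ctrl was 0.47 (SE 0.25, adjusted p = 0.141), and without Ctrl 4 it was 0.73 and was called (adjusted p = 0.0131). This difference was called in 4 of 29 alternatives. One of them was limma voom with all 18 libraries (log2 fold change 0.62, adjusted p = 0.0226). In DN versus Ctrl it was 0.24 (-0.30 to 0.77, adjusted p = 0.503), and 0.50 without Ctrl 4 (adjusted p = 0.0971).

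Trib3, a pseudokinase that CHOP and ATF4 induce and that binds both ATF4 and the kinase AKT, had the largest rise and the fewest reads, 25 to 159 counts per library in Treat, 21 to 48 in DN and 5 to 23 in Ctrl. Its level was 0.892, 1.33 and 5.62 CPM in Treat, 0.649, 1.28 and 1.89 CPM in DN and 0.160, 0.528 and 0.809 CPM in Ctrl (lowest, median and highest). Every Treat library was above every control, and DN 3 alone among the DN libraries lay below the highest control. Trib3 was 2.74-fold higher in DN than in Ctrl (95% interval 1.38 to 5.48, adjusted p = 0.0255) and 4.13-fold higher in Treat than in Ctrl (2.06 to 8.24, adjusted p = 0.00209). Without Treat 1 the log2 fold change in Treat versus Ctrl was 1.38 (adjusted p = 0.00543), against 2.04 with it. The DN call was lost, with adjusted p values of 0.0507 to 0.057, when any of DN 2, DN 5, Ctrl 1 or Ctrl 2 was left out. Of the 4 genes of the ATF4 arm, 2 were called higher and 0 lower in each comparison with Ctrl, where 16.9% of all genes were called higher in DN and 23% in Treat, and nothing particular to the arm is read from this.

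**Figure D2:**
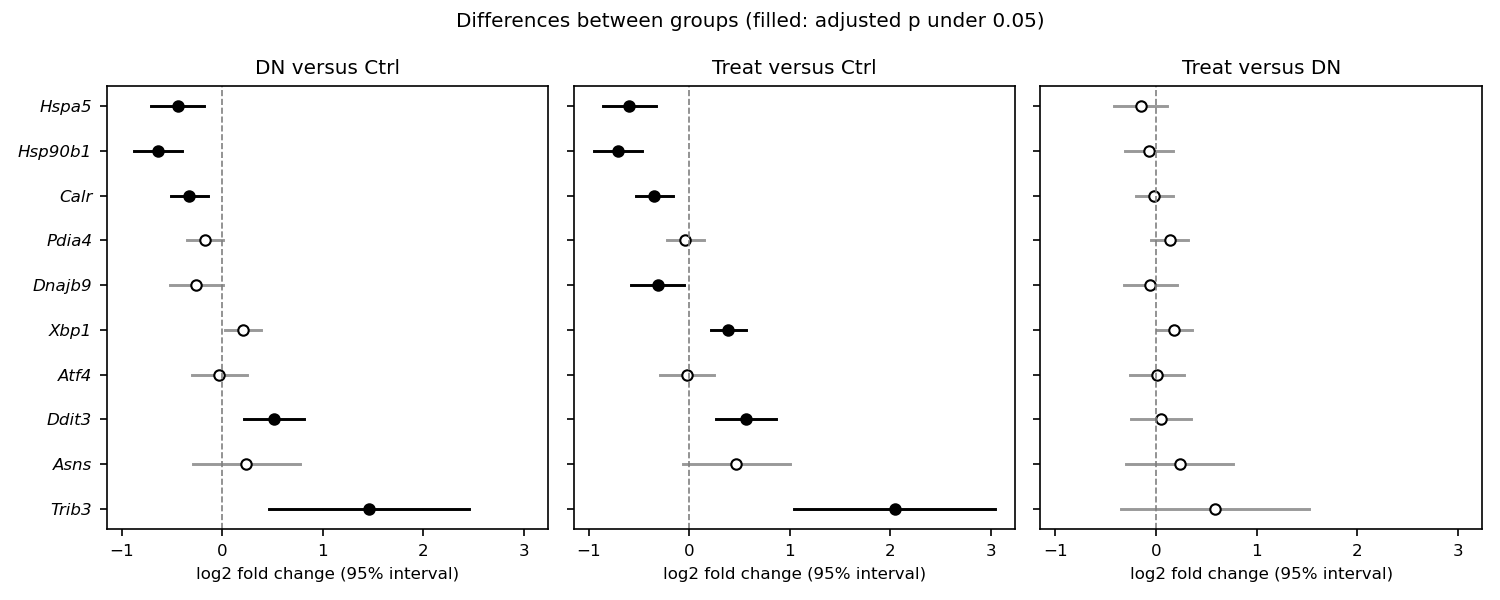
Log2 fold change (x axis) of each gene in DN versus Ctrl, Treat versus Ctrl and Treat versus DN, with 95% intervals as lines and filled points where the adjusted p was under 0.05. Falls of Hspa5, Hsp90b1 and Calr and rises of Ddit3 and Trib3 appear in both comparisons with Ctrl, and no point is filled in Treat versus DN.

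The comparison of Treat with DN asks whether TSK altered these genes in the diseased kidney. None of the 10 was called by edgeR, by DESeq2 or by limma voom. At an unadjusted p under 0.05, edgeR and DESeq2 each gave 1 member, Xbp1, and limma voom gave 0, where edgeR placed 16.4% of all genes under that limit. Xbp1 averaged 121 ± 9.62 CPM in Treat and 107 ± 14.3 CPM in DN, with 6 of 6 Treat libraries above the DN median (log2 fold change 0.18, SE 0.08, adjusted p = 0.288). For Hspa5 the log2 fold change was -0.15 (95% interval -0.42 to 0.11, adjusted p = 0.585), and for Hsp90b1 it was -0.068 (-0.31 to 0.17, adjusted p = 0.819). Calr lay at -0.018 (-0.20 to 0.17) and Dnajb9 at -0.056 (-0.32 to 0.21), and scaling by library totals alone turned the values of Hsp90b1, Calr and Dnajb9 positive. Ddit3 lay at 0.050 (-0.25 to 0.35). A change opposite to the DN versus Ctrl estimate of 0.51 and as large lies outside this interval. That estimate has its own interval of 0.21 to 0.81, and an opposite change of 0.21 lies inside, so a reversal of Ddit3 is not excluded. For Hsp90b1 a change opposite to the DN estimate of -0.64 and as large lies outside the interval. Treat versus DN and DN versus Ctrl use the same 6 DN libraries, so their errors are linked. Trib3 had a log2 fold change of 0.59 (-0.35 to 1.52, adjusted p = 0.548), which was -0.077 without Treat 1. The comparisons DN versus Ctrl and Treat versus Ctrl use the same 6 control libraries, so their likeness is not independent evidence.

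Ratios between members within a library do not depend on how libraries are scaled. The pairs were chosen after their values had been seen, so the ratios are a description with no test. Xbp1 had 38.1 ± 4.68 counts per 100 counts of Hspa5 in Treat, 30.4 ± 6.00 in DN and 19.1 ± 1.69 in Ctrl (SD, n = 6 each). The lowest DN library, at 22.9, stood above the highest control, at 22.4, so neither Treat nor DN overlapped with Ctrl, while Treat overlapped with DN. Pdia4 had 26.7 ± 3.39 counts per 100 of Hspa5 in Treat, 22.1 ± 3.27 in DN and 18.1 ± 2.01 in Ctrl, and DN overlapped with Ctrl. Ddit3 had 27.2 ± 2.47 counts per 100 of Atf4 in Treat, 26.7 ± 4.61 in DN and 18.2 ± 2.77 in Ctrl. Ctrl 4, at 23.0, stood above the lowest DN library and below all Treat libraries. Xbp1 had 235 ± 46.3 counts per 100 of Dnajb9 in Treat, 197 ± 30.1 in DN and 141 ± 11.5 in Ctrl. Trib3 had 24.2 ± 15.5 counts per 100 of Asns in Treat, 19.7 ± 4.55 in DN and 11.3 ± 9.65 in Ctrl, with wide overlap.

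**Figure D3:**
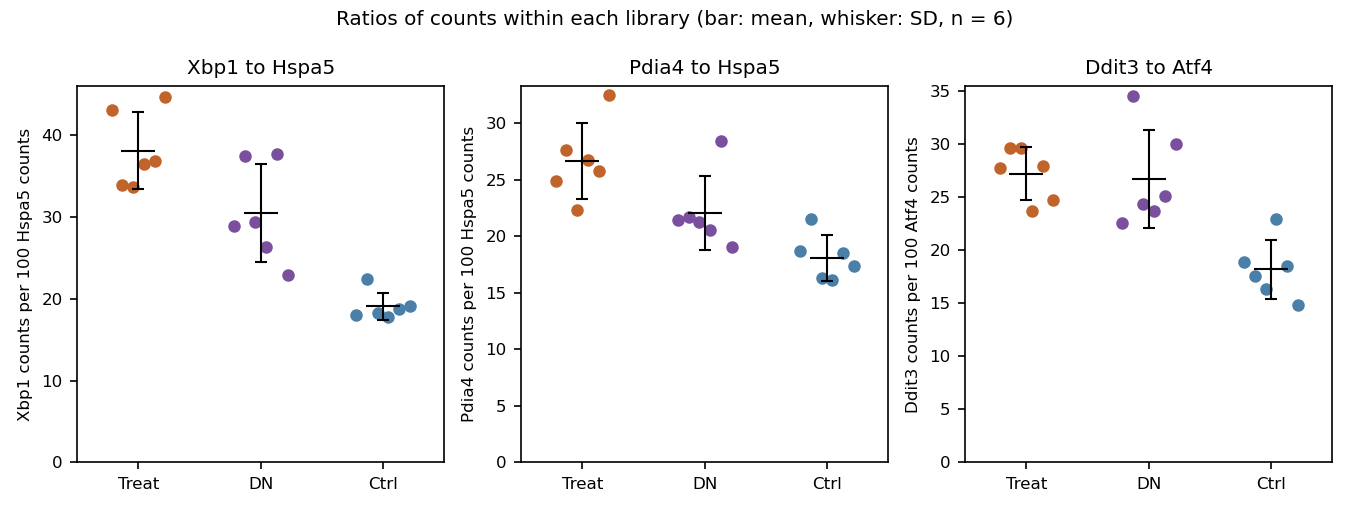
Counts of one gene per 100 counts of another in the same library (y axis, from 0) in Treat, DN and Ctrl, with points for libraries, bars for means and whiskers for SD. The pairs were chosen after their values had been seen. Xbp1 per Hspa5 is 38.1 in Treat, 30.4 in DN and 19.1 in Ctrl on average, with no overlap of Treat or DN with Ctrl. The lowest DN library is at 22.9 and the highest control at 22.4.

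Within groups, the chaperones Hspa5 and Hsp90b1 varied together from animal to animal. Group means were subtracted from log2 CPM, and all 45 pairs were correlated over 18 libraries. Hspa5 and Hsp90b1 had a Pearson r of 0.802 (permutation p = 0.00036, adjusted p = 0.0162) and a Spearman rho of 0.785 (permutation p = 0.00132, adjusted p = 0.0436), and r was 0.758 without the 2 libraries farthest from the median of Hspa5. This was the only one of 45 pairs whose r passed. Pdia4 and Dnajb9 had an r of 0.745 (permutation adjusted p = 0.0508; rho 0.715, permutation adjusted p = 0.0436), which was 0.579 without Treat 1 and Treat 2. Hspa5 and Dnajb9 had an r of 0.712 (permutation adjusted p = 0.0511; rho 0.664, permutation adjusted p = 0.0599; r without 2 libraries 0.595). Atf4 and Ddit3 had an r of 0.673 (permutation adjusted p = 0.0746; rho 0.695, permutation adjusted p = 0.0599; r without 2 libraries 0.72). Calr, which fell together with Hspa5 in the group means, had an r of -0.0684 with it (permutation adjusted p = 0.866; rho 0.0258, permutation adjusted p = 0.972; r without 2 libraries 0.0519). Xbp1, whose group means were higher than in Ctrl, had a positive r with Hspa5 (0.461), Hsp90b1 (0.543), Pdia4 (0.445) and Dnajb9 (0.436). None of these passed (permutation adjusted p from 0.0797 to 0.323). With scaling by library totals alone, 5 pairs passed, all positive.

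**Figure D4:**
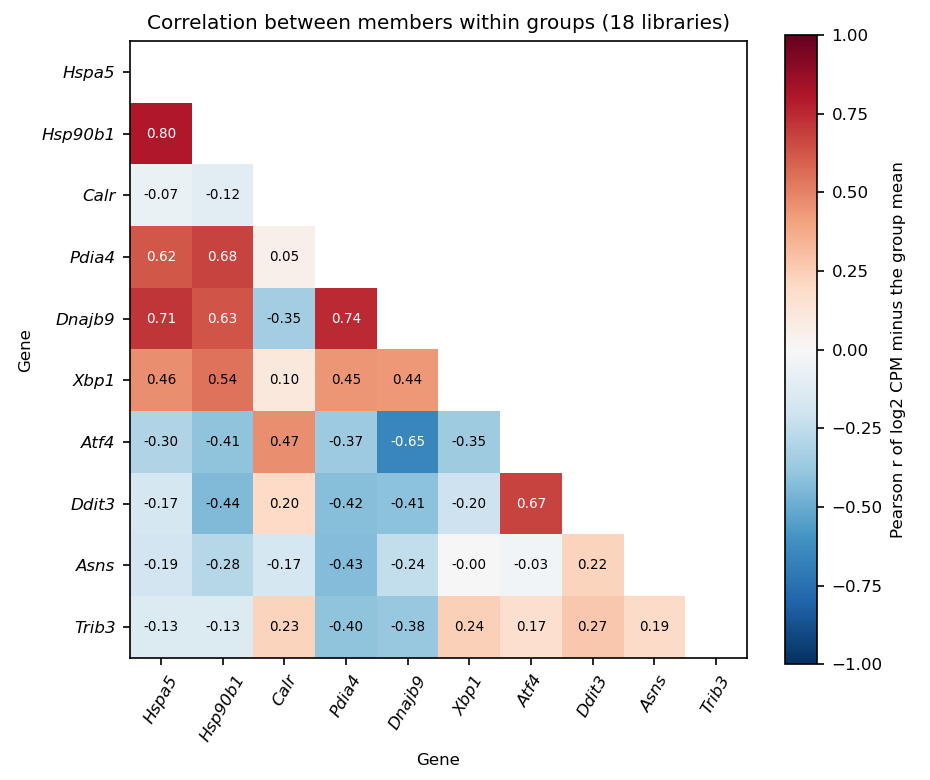
Pearson r (colour and printed value, from -1 to 1) between each pair of genes over 18 libraries after the group means were subtracted from log2 CPM; rows and columns are genes. Pairs among Hspa5, Hsp90b1, Pdia4 and Dnajb9 have positive values up to 0.80, and Atf4 and Ddit3 have 0.67. Calr, also a chaperone gene, has -0.35 to 0.05 with Hspa5, Hsp90b1, Pdia4 and Dnajb9. Xbp1 is positive with each of Hspa5, Hsp90b1, Pdia4 and Dnajb9, at 0.44 to 0.54. Only Hspa5 with Hsp90b1 passed at a permutation adjusted p under 0.05.

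One control library bears on several of these values. A search for genes with the other 5 controls at least 10-fold away from 1 control and from every DN and Treat library found 6 genes when that control was Ctrl 4, and 1 or 0 for each other control; no member was among them. Ctrl 4 had control-like levels of Hspa5 (493 CPM), Calr (376 CPM), Dnajb9 (65.0 CPM) and Xbp1 (87.6 CPM). Its Hsp90b1, at 553 CPM, was the lowest among the controls and above all DN and Treat libraries, while its Ddit3 and Asns were the highest among the controls. Pdia4 in Ctrl 4, at 79.5 CPM, was also the lowest among the controls and lay within the DN range of 71.6 to 87.7 CPM. Without Ctrl 4, DN versus Ctrl called 5 members, and Treat versus Ctrl called 7, with Asns gained and Dnajb9 lost.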

How the data were processed

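Kidney RNA was sequenced in 18 libraries, 1 per animal. The values the authors deposited are raw counts, without normalization. The submitters' processing notes name GRCm38 and mm10. No source used here states the aligner, the counter, the annotation release or the strand setting. Names came from the list that defines the 10 genes. The rat gene table matched 0 of 55335 identifiers, so other pathway genes and cell type markers were not analysed here, and no further gene was named by likeness. Groups and replicate numbers came from sample titles. edgeR 4.0.16 (R 4.3.3) kept 19233 genes with filterByExpr, computed TMM factors, and fitted 1 coefficient per group over all 18 libraries for the quasi-likelihood test. Standard errors and intervals came from the F statistics. For log2 CPM the prior count was 2. The test was also tried on simulated counts in which few genes changed, and only in DN, unlike these data. No result here rests on that trial. Correlations used 100000 permutations within groups. Alternatives used DESeq2 1.42.0, limma 3.58.1 (voom with quality weights), other scalings, filters, fits and sets of libraries. All 10 genes are named whatever their values. The members and lists were chosen with earlier results of these data known. Precision is limited by the 6 animals per group and, for Trib3, by few reads.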

Additional observations from a re-analysis of the deposited data

Results flagged for a closer look

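Of 30 sets of 6 libraries (10 genes in 3 groups), 1 held a library set far apart from the others. Chance alone flags about 1 set in 20, so 1 of 30 is not above the chance rate. Trib3 in Treat 1 stood at 5.62 CPM, while the other 5 Treat libraries stood between 0.892 and 1.58 CPM. Its gap to the next library was 0.855 of the group's range. The same library had the lowest Dnajb9 of the 18 (37.0 CPM), the highest Ddit3 (20.1 CPM), the highest Asns (10.4 CPM) and the highest TMM factor (1.15). In a principal component analysis of log2 CPM over all tested genes, Treat 1 lay at 78.8 on the second component. The other Treat libraries lay between -26.8 and 25.2. Ctrl 4 lay at 54.2 and the other controls between -18.3 and -4.78.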

How the results depend on the processing

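The calls of Hspa5, Hsp90b1, Calr and Ddit3 against Ctrl, and of Xbp1 and Trib3 in Treat versus Ctrl, held in each of 29 alternatives (RLE factors, library totals, DESeq2, limma voom, 2 filters, fits of 12 libraries, a replicate block, thinned counts, 2 pairs of libraries left out and each library left out). Without 1 library, 4 to 6 members were called in DN versus Ctrl, 6 to 7 in Treat versus Ctrl and 0 in Treat versus DN. With the division of the controls as a covariate, chosen after the data had been seen, 0 members were called against Ctrl, in DN (5 without the covariate) and in Treat (7 without it); over all 19233 genes, calls likewise numbered 986 in DN and 1862 in Treat, against 6202 and 8629 without it. That fit leaves Ctrl 4 as the only reference, and its log2 fold changes in DN were -0.46 for Hspa5, -0.32 for Hsp90b1, -0.37 for Calr, 0.16 for Ddit3 and 1.26 for Trib3. There Asns turned to -0.64 in DN and -0.40 in Treat, and Pdia4 to 0.10 in Treat versus Ctrl; none of these 3 values was called. Correlated pairs that passed numbered 1 in the main setting, 1 without Ctrl 4 and Treat 1, and 5 with library totals; the cause was not tested.

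Library totals shifted the median of all genes by 0.13 in Treat versus DN and 0.10 in Treat versus Ctrl, and turned Hsp90b1 (0.057), Calr (0.12) and Dnajb9 (0.063) in Treat versus DN and Pdia4 (0.062) and Atf4 (0.088) in Treat versus Ctrl. Calr in Treat versus DN was 0.0048 in limma voom, and Atf4 in Treat versus Ctrl was 0.0058 with 12 libraries. Without Ctrl 4 and Treat 1 the values in Treat versus DN were 0.010 for Calr, 0.048 for Dnajb9, -0.046 for Atf4, -0.013 for Ddit3 and -0.056 for Trib3. With single libraries left out, signs turned within these ranges: in DN versus Ctrl, Atf4 -0.12 to 0.040; in Treat versus Ctrl, Atf4 -0.094 to 0.023 and Pdia4 -0.11 to 0.015; in Treat versus DN, Atf4 -0.064 to 0.10, Calr -0.065 to 0.030, Ddit3 -0.038 to 0.11, Dnajb9 -0.13 to 0.029 and Trib3 -0.077 to 0.74. The values in this paragraph belong to differences not called in any of the 29 alternatives.

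Correlations of same-numbered libraries ran from -0.189 to 0.185 over the 3 comparisons, and in none did every pair exceed 0.1. In Treat versus DN, 2 of 6 pairs exceeded 0.1, and in each other comparison 0 did. In Treat versus DN, 2 of 6 Treat libraries correlated best with the DN library of the same number, and in each other comparison 0 did. The main fit used no pairing because the labels state none, and these values cannot show that a weak pairing is absent. With the replicate block 5 members were called in DN versus Ctrl, 7 in Treat versus Ctrl and 0 in Treat versus DN; over all genes Treat versus DN gave 117 calls with the block and 268 without it.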
